A study of Mus musculus with 12 samples.

Results

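The integrin and laminin genes were described in 12 lungs of miR-30a-/- mice, whose RNA was sequenced from whole tissue. They were chosen by name: the protein-coding genes of the count table whose symbol is that of an integrin alpha chain, an integrin beta chain or a laminin alpha, beta or gamma chain. This rule gave 37 of the 55487 genes in the table. There were 18 integrin alpha, 8 integrin beta, 5 laminin alpha, 3 laminin beta and 3 laminin gamma genes, and the rule uses no measured value, although the set was picked with earlier results of these data known. All 12 lungs came from C57BL/6J mice in which the miR-30a gene had been removed with CRISPR/Cas9, so the room air controls carried the deletion too, and wild-type lungs were not analysed here. Pups of mixed litters breathed 95% oxygen (hyperoxia) or room air from postnatal day (PND) 1 to PND 5 and then stayed in room air until PND 21. Each lung was taken whole on PND 21 after the vessels had been rinsed with saline. There were 3 lungs in each of the 4 groups of sex and exposure.

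Integrins are receptors made of 1 alpha and 1 beta chain that fasten a cell to the matrix or to another cell and pass signals in both directions across the membrane. Laminins are trimers of 1 alpha, 1 beta and 1 gamma chain that assemble into the sheet of every basement membrane, and several integrins bind them. In the lung, laminins lie between the alveolar epithelium and the capillaries, where both barriers share a fused basement membrane, while the integrins with a beta2 or beta7 chain, and alpha4, are carried mostly by leukocytes and serve their arrest on endothelium.

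The deleted microRNA belongs to a family whose members share a seed, the bases that pair with a target. RefSeq gives these mature forms on GRCm38.p6 (mm10), with the seed, bases 2 to 8, in capitals. They are shown because the family members that remain in these mice carry the seed of the deleted one.
miR-30a-5p: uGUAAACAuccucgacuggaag
miR-30c-5p: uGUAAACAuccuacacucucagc
miR-30e-5p: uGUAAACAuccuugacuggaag
The 3 forms had the same 7-base seed, and their genes are on chromosome 1 for miR-30a-5p (23272274 to 23272295) and miR-30c-5p (23291714 to 23291736) and on chromosome 4 for miR-30e-5p (120772660 to 120772681). The match to this seed in a transcript is TGTTTAC, or TGTTTACA with the base opposite the microRNA's first position as well. The 3′ UTR searched was that of 1 protein-coding transcript per gene. It was chosen first by its APPRIS principal level and then by the longest coding sequence. Among the 37 genes, 3 had the 8-base match there, 8.11% of them, against 5.98% of 21024 genes with a 3′ UTR. With the 7-base match included these shares were 10.8% (4 of 37 genes) and 12.2%. A match is a description of the sequence only. The 8-base matches, in capitals, were in *Itga1* (chr13:114954760-114954785, minus strand), *Itga8* (chr2:12107666-12107691, minus strand) and *Itgb3* (chr11:104667182-104667207, plus strand).
Itga1: aacagctctgttTGTTTACAttgttg
Itga8: gtatctgaggcaTGTTTACActggca
Itgb3: tctctgccattaTGTTTACAgaggac
Another gene, *Itgb8*, had 2 of the 7-base matches on the minus strand of chromosome 12 and no 8-base match. *Mir30a* had 0 counts in all 12 lungs. The read counts of the genes with a match are described with their families.

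The total of counted reads ran from 8763033 to 16741694 per lung. The level of a gene is given as CPM, its count scaled to a common library size after upper-quartile scaling of the libraries, and 3 counts, the least taken as detectable, came to 0.191 to 0.327 CPM. The 37 genes together took 0.307 to 0.498% of the counts of a lung. Olfactory and vomeronasal receptor genes, whose reads served as a measure of background, took 0.410 to 0.945%. A single predicted gene, *Gm10800*, took 6.04 to 23.8%. The 3 lungs with the smallest receptor share, female 5 and female 2 from room air and male 1 from hyperoxia, had the 3 largest shares of counts on integrin and laminin genes. Hyperoxia male 2 had the largest receptor share and the smallest share on the 37 genes. The receptor share averaged 0.555% ± 0.168 (SD, n = 3) in the room air females and 0.766% ± 0.0901 in the hyperoxia females, against 0.770% ± 0.129 and 0.728% ± 0.215 in the room air and hyperoxia males. Markers of alveolar type 2 cells summed to 4162 to 9808 CPM in room air and 3823 to 8018 CPM in hyperoxia, and endothelial markers to 1093 to 2079 and 994 to 1929 CPM, so the defining markers of the labelled tissue were present. Room air male 1 stood apart in skeletal muscle markers, at 2551 CPM against 224 to 350 CPM in the other 11 lungs, and was the highest lung for heart muscle, smooth muscle, basal cell and nerve markers too. Heart muscle markers were lower in hyperoxia for 5 of 6 genes over all lungs, 4 at an unadjusted p under 0.05, with a median log2 fold change of −0.85, and smooth muscle markers for 4 of 4, 2 at that threshold, with a median of −0.32, and the part of these cells was not tested.

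**Figure D1:**
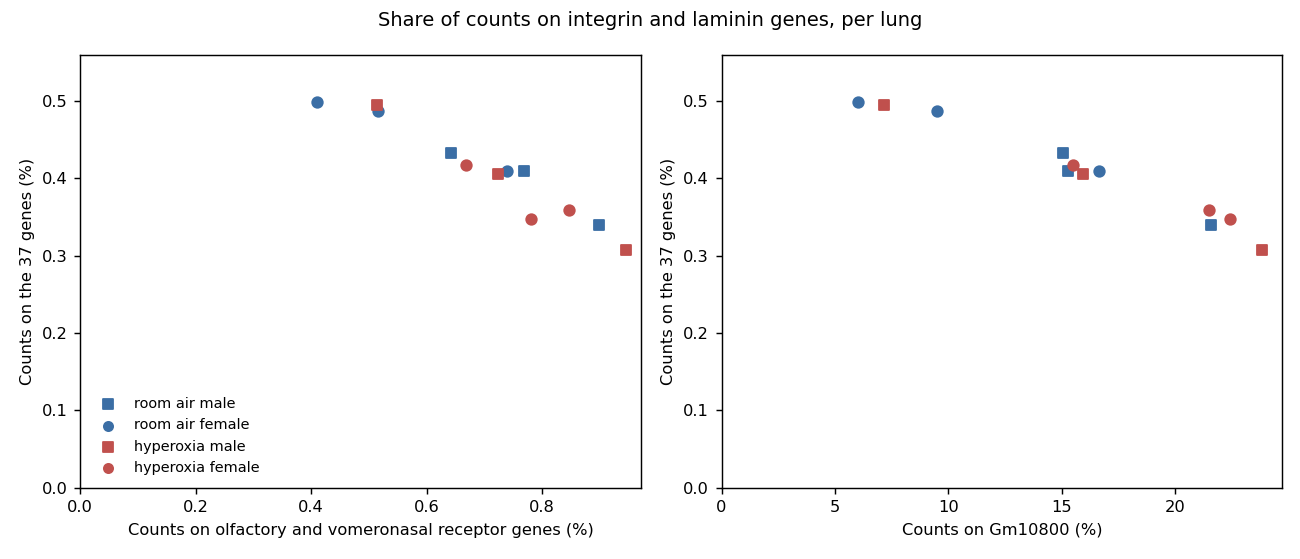
Share of counts on the 37 integrin and laminin genes in each lung (y axis, percent) against the share on olfactory and vomeronasal receptor genes (left) and on Gm10800 (right), both in percent. Blue marks room air, red hyperoxia, squares males and circles females, 1 point per lung. Room air female 5, with the smallest receptor share, had the largest share on integrin and laminin genes, 0.498%, and hyperoxia male 2, with the largest receptor share, the smallest, 0.307%.

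The plot of shares shows the 3 smallest receptor shares beside the 3 largest shares on integrin and laminin genes, a relation that was not tested. In the females the mean receptor share also differed between the exposures, so the 2 cannot be told apart there. On the CPM scale 16 of the 37 genes were highest in room air female 5, and 19 were lowest in hyperoxia male 2. A second scale was also used, chosen after the values were seen. In it the libraries were scaled on 6947 protein-coding genes with at least 100 counts on average and a background share under 20% (the well-counted genes). On that scale none of the 37 genes was highest in room air female 5 and 9 were lowest there. In hyperoxia male 2, 7 were lowest and 8 highest, so that these lungs still held many of the extremes.

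Levels were compared between genes as CPM per kilobase of exon. Among the alpha chains, *Itga8* (ENSMUSG00000026768, chr2:12106632-12301922), which pairs with beta1 and binds nephronectin and fibronectin, was highest, with a median of 33.9 CPM per kilobase over the 12 lungs (21.2 to 46.3). *Itga3* (ENSMUSG00000001507, chr11:95044474-95076801), an epithelial laminin receptor chain, had a median of 25.2 (18.3 to 35.2). *Itga1* (ENSMUSG00000042284, chr13:114953096-115101964), a collagen receptor chain, had 24.4 (15 to 32.6). The ranges of these alpha chains overlapped, so their order was not resolved in single lungs. Then came *Itga9*, *Itga6*, *Itga5*, *Itgal*, *Itgax*, *Itgav* and *Itga4* at medians of 16.3 to 7.73, and *Itga2*, *Itgae*, *Itga2b*, *Itga11*, *Itgad*, *Itga7* and *Itga10* at 6.89 to 3.35. *Itgam* was lowest of the alpha chains, at 1.46 (1.19 to 2.10). Estimated background made up 73.5% of its counts, and 3450 bases of its exons are shared with *Gm49368* on the same strand, so its reads may have been left uncounted and its level is uncertain.

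Among the beta chains, *Itgb1* (ENSMUSG00000025809, chr8:128685654-128733200), the partner of most alpha chains, had a median of 81.2 CPM per kilobase (51.6 to 125), the highest of all 37 genes in the median. Its lowest lung lay above the highest lung of every other beta chain. The leukocyte chain *Itgb2* (ENSMUSG00000000290, chr10:77530252-77565708) followed at 18.5 (14.8 to 27.2), and *Itgb5* (ENSMUSG00000022817, chr16:33829665-33949338), a partner of alphav, at 17.1 (13.6 to 23.8), with overlapping ranges. *Itgb7*, *Itgb3*, *Itgb4* and *Itgb6* had medians of 6.84 to 9.51. *Itgb8*, another partner of alphav, was lowest at 1.38, with 83.8% of its counts at the level of background, so that little of its count could be told from background.

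**Figure D2:**
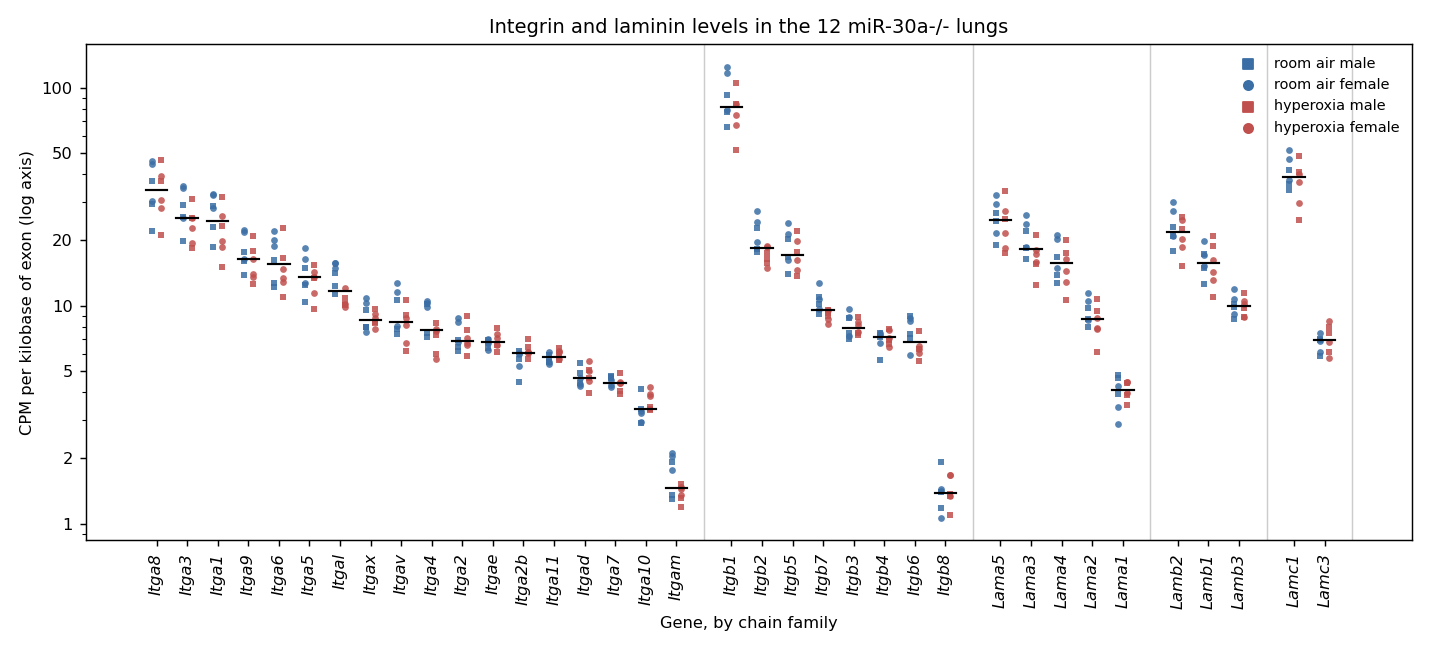
Level of 36 of the 37 genes in each of the 12 lungs, as CPM per kilobase of exon on a log axis, grouped by chain family and ordered by the median (black line). Blue marks room air, red hyperoxia, squares males and circles females. Itgb1 stands above the other genes in the median at 81.2, and Itgam and Itgb8 lie lowest, at 1.46 and 1.38.

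The plot of levels also shows the laminin chains. *Lamc1* (ENSMUSG00000026478, chr1:153218922-153332786), the gamma chain of most laminins, had a median of 39 CPM per kilobase (24.7 to 51.7). *Lama5* (ENSMUSG00000015647, chr2:180176373-180225859), the alpha chain of the laminins typical of adult epithelium and endothelium, had 24.7 (17.4 to 33.5). *Lamb2* (ENSMUSG00000052911, chr9:108479736-108490530) had 21.7 (15.1 to 30.00). Of the other laminin genes, *Lama3*, *Lamb1*, *Lama4*, *Lamb3*, *Lama2*, *Lamc3* and *Lama1* had medians from 18.2 down to 4.12. Shares within a lung do not depend on how libraries are scaled, but they still hold background reads. Of the beta chain counts per kilobase, *Lamb2* took 43.3 to 49.5%, *Lamb1* 30.3 to 36.8% and *Lamb3* 17.7 to 25.3%, in this order in 12 of 12 lungs. Among the alpha chains the order *Lama5*, *Lama3*, *Lama4*, *Lama2*, *Lama1* held in 11 of 12 lungs, with *Lama5* at 30.8 to 37.7% and *Lama1*, the chain of early embryonic basement membranes, at 3.15 to 8.67%. The share of *Lama5* was 30.9 to 37.7% in hyperoxia and 30.8 to 35.3% in room air. Among the alpha and beta chains, the shares of *Lama3* and *Lamb2* did not overlap between the exposures in the males. *Lama3*, the alpha chain of an epithelial laminin, took 23.7, 24.4 and 21.8% in the hyperoxia males and 26.7, 27.9 and 26.5% in the room air males. In the females its share was 23.4, 26.7 and 27.1% in hyperoxia and 29.2, 25.9 and 27.3% in room air, with overlap. *Lamb2* took 44.1, 43.3 and 44.1% of the beta chain counts in the hyperoxia males and 45.6, 46.1 and 45.6% in the room air males. In the females it took 48.1, 45.8 and 45.3% in hyperoxia and 48.5, 49.5 and 46.2% in room air, with overlap.

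**Figure D3:**
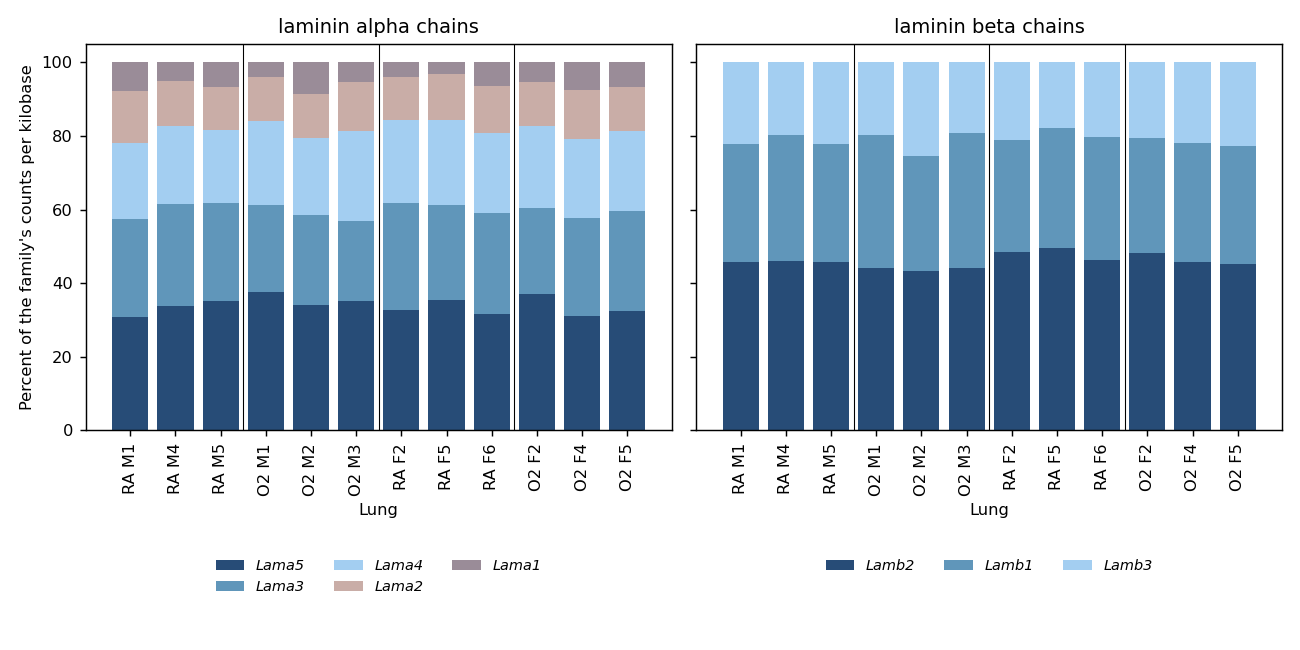
Share of each laminin alpha and beta chain in the counts per kilobase of its family (y axis, percent), 1 stacked bar per lung. RA is room air, O2 hyperoxia, M male and F female, with the animal number, and lines part the 4 groups. The alpha family is on the left and the beta family on the right. The order of the chains is the same in all 12 lungs for the beta family and in 11 of 12 for the alpha family.

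None of the 37 genes passed the test of hyperoxia against room air, either over all lungs or within a sex. The test was edgeR's quasi-likelihood test in a model of the 4 groups. Called genes had an adjusted p (Benjamini-Hochberg, over the 45828 genes tested) under 0.05 and a fold change over 1.5. Over all lungs 0 of the 37 were called, where 0.0415% of all genes tested were, and their smallest adjusted p was 0.809 (edgeR). In the females 0 were called, against 0.00218% of all genes, and in the males 0, against 0% of all genes. The smallest adjusted p of the 37 was 0.352 in the females and 1.00 in the males (edgeR). Without adjustment, 6 of the 37 were lower and 0 higher over all lungs at a p under 0.05, where 2.52% of all genes were lower and 2.67% higher. The 6 were *Itgal*, *Itgb2*, *Itga4*, *Itgam*, *Itgb7* and *Itgb6*. Without hyperoxia female 5 or without room air male 4 this count was 2, where 1.77% and 1.65% of all genes were lower. Without room air female 2 it was 3, against 1.73%. In the females 7 were lower (*Itgal*, *Itga4*, *Itgam*, *Itgb2*, *Itga6*, *Itgb7* and *Itga3*) and 1 higher (*Itga10*), against 5.28% and 7.32% of all genes, and in the males 0 were lower and 0 higher, against 1.8% and 0.899%. On the second scale 4 were lower and 5 higher in the females, against 1.17% and 12.2% of all genes, and 5 were lower and 1 higher in the males, against 1.21% and 0.703%. On the upper-quartile scale the female count of 7 was 1 without room air female 2, 2 without hyperoxia female 5 and 3 without hyperoxia female 4 or room air female 5. It was 11 without room air female 6 and 12 without hyperoxia male 2. The share of all genes lower in the females moved too, to 2.57, 2.19, 2.59, 1.95, 10.4 and 8% in these fits, in that order.

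Of the 37 genes, 9 lay above 0 over all lungs, 9 in the females and 22 in the males, where 56%, 60.8% and 48% of all genes did. The male count of 22 was 8 without hyperoxia male 1 and 13 without room air male 1, and the count of 9 over all lungs was 14 without hyperoxia male 2. The median log2 fold change of the 37 genes was −0.11 over all lungs, −0.30 in the females and 0.03 in the males. With 1 lung left out these medians ran from −0.20 to −0.04, from −0.44 to −0.19 and from −0.11 to 0.16. Over all genes tested these medians were 0.03, 0.11 and −0.01. Over the well-counted genes they were −0.12, −0.31 and 0.06, within 0.03 of the integrin and laminin genes. Scaled on the well-counted genes, the medians of the 37 became 0.02, 0.01 and −0.04, and 20, 21 and 15 of the 37 lay above 0. The lower level of the set as a whole in hyperoxia females was thus found on the upper-quartile scale, where the median of the well-counted genes was lower as well, and was lost on the other scale. The receptor share moved with it, as given above. When the fit held the receptor share, the medians of the set came to −0.02, 0.04 and −0.07, and 16, 23 and 12 of the 37 lay above 0.

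Of the 7 chains of the beta2 and beta7 integrins, *Itgal*, *Itgb2*, *Itgam* and *Itgb7* were among the 6 genes lower at an unadjusted p under 0.05, and so was *Itga4*, which pairs with beta1 or beta7. *Itgal* (ENSMUSG00000030830, chr7:127296260-127335138), the alpha chain of LFA-1, the receptor of ICAM on T cells and other leukocytes, had 71.3, 66.5 and 66.5 CPM in the hyperoxia males and 74.2, 93.2 and 81.2 in the room air males. It had 66.9, 79.5 and 64.8 CPM in the hyperoxia females and 97.8, 103 and 103 in the room air females. On the upper-quartile scale every hyperoxia lung was below every room air lung in both sexes. Without overlap, 21.6% of the 37 genes were lower there in the females, against 6.42% of all genes. In the males 5.41% were, against 3.89% of all genes. Scaled on the well-counted genes, the female groups of *Itgal* overlapped. Ratios within a lung need no scaling but still hold background reads. By this measure *Itgal* had 16.6 to 31.6 counts per 100 counts of *Itgb1* in hyperoxia and 20.2 to 32 in room air, with overlap in both sexes. Of the 7 chains, *Itgam* had counts mostly at the level of background. Together the 7 took 8.63 to 14% of all integrin counts in hyperoxia and 10.2 to 12.9% in room air, again with overlap in both sexes. In the females this share averaged 11.5% ± 1.09 (SD, n = 3) in hyperoxia and 10.8% ± 1.06 in room air. Over all lungs the log2 fold change of *Itgal* was −0.40 (SE 0.13, unadjusted p = 0.00418, adjusted p = 0.809, edgeR). In the females it was −0.52 (SE 0.18, adjusted p = 0.352, edgeR) and in the males −0.28 (SE 0.18, adjusted p = 1.00, edgeR). With 1 lung left out the male value ran from −0.35 to −0.18. The direction held over the 24 alternatives run, with a log2 fold change of −0.45 to −0.26 over all lungs. Scaled on the well-counted genes it was −0.26 (unadjusted p = 0.013, adjusted p = 0.789, edgeR). A fit that held the receptor share as a covariate gave −0.38 (adjusted p = 0.000823, edgeR), short of the 1.5-fold change needed for a call. Of the 37 genes 1 had an adjusted p under 0.05 in that fit, where 0.334% of all genes had. Over the alternatives its adjusted p ran from 7.6e-07 to 1.00, the lowest with RUVr, which removes factors estimated from the residuals. In the females *Itgal* was called with DESeq2 (log2 fold change −0.62, adjusted p = 0.0251), where 0.194% of all genes were called, and not with the other alternatives, over which the adjusted p reached 0.914.

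*Itgb2*, the beta chain shared by LFA-1, Mac-1 and related receptors, had 53, 47.7 and 49.99 CPM in the hyperoxia males and 53.8, 69 and 55.8 in the room air males. It had 57.3, 56.9 and 45.2 CPM in the hyperoxia females and 73.5, 83.1 and 59.6 in the room air females. On the upper-quartile scale the hyperoxia lungs were again below the room air lungs in both sexes. Over all lungs the log2 fold change was −0.34 (SE 0.13, unadjusted p = 0.0123, adjusted p = 0.927, edgeR). Within a lung, *Itgb2* had 12.3 to 22.7 counts per 100 counts of *Itgb1* in hyperoxia and 15.4 to 20 in room air, with overlap in both sexes. Scaled on the well-counted genes, the groups of *Itgb2* overlapped in both sexes. The hyperoxia females had 56.5, 64.9 and 51.6 CPM there and the room air females 61.7, 64.1 and 62.8. The log2 fold change on that scale was −0.20 (unadjusted p = 0.0177, adjusted p = 0.789, edgeR). With the receptor share as a covariate it was −0.25 (adjusted p = 0.10, edgeR).

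*Itga4* (ENSMUSG00000027009, chr2:79255426-79333123), the alpha chain of VLA-4, which binds VCAM and fibronectin, had 117, 83.6 and 103 CPM in the hyperoxia males and 100.4, 142 and 104 in the room air males. It had 106, 109.6 and 79.6 CPM in the hyperoxia females and 143, 147 and 138 in the room air females. On the upper-quartile scale the female groups did not overlap, and the male groups did. Scaled on the well-counted genes, the female groups of *Itga4* overlapped as well. Its counts relative to those of *Itgb1* within a lung overlapped between the exposures in both sexes. The fitted log2 fold change was −0.36 (SE 0.15, unadjusted p = 0.0231, adjusted p = 0.927, edgeR) over all lungs and −0.53 (SE 0.21, adjusted p = 0.359, edgeR) in the females. Scaled on the well-counted genes it was −0.24 (unadjusted p = 0.00723, adjusted p = 0.789, edgeR), so its direction held while its size was smaller. The fit with the receptor share gave −0.28 (adjusted p = 0.0604, edgeR).

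*Itgb7* (ENSMUSG00000001281, chr15:102215995-102231944), a partner of alpha4 and alphaE that guides lymphocytes to mucosa, had 25.7, 26.3 and 24.7 CPM in the hyperoxia males and 25.3, 30.3 and 28.2 in the room air males. It had 26.3, 24 and 22.9 CPM in the hyperoxia females and 29.7, 26.7 and 35.1 in the room air females. On the upper-quartile scale only the female groups did not overlap. Scaled on the well-counted genes, the female groups overlapped as well. Over all lungs the log2 fold change was −0.22 (SE 0.10, unadjusted p = 0.0361, adjusted p = 0.927, edgeR), and it was −0.10 (unadjusted p = 0.461, adjusted p = 0.825, edgeR) on the well-counted scale and −0.24 (adjusted p = 0.214, edgeR) with the receptor share as a covariate. *Itgam* (ENSMUSG00000030786, chr7:128062640-128118491), the alpha chain of Mac-1 on macrophages and neutrophils, had 6.57, 5.99 and 7.68 CPM in the hyperoxia males and 6.81, 6.52 and 9.64 in the room air males. It had 7.26, 6.80 and 7.39 CPM in the hyperoxia females and 10.3, 10.6 and 8.85 in the room air females. The female groups did not overlap on this upper-quartile scale. The fitted difference on the log2 scale was −0.32 (SE 0.14, unadjusted p = 0.025, adjusted p = 0.927, edgeR), on counts that were mostly at the level of background. With background subtracted it was −1.60 over all lungs and −3.01 in the females, and scaled on the well-counted genes −0.19 and −0.16, so its size depended on the setting. With the receptor share it was −0.29 (adjusted p = 0.53, edgeR) over all lungs. Of the other leukocyte chains, *Itgax*, *Itgad* and *Itgae* had log2 fold changes of −0.06, 0.03 and 0.05 over all lungs, each with an adjusted p over 0.9 (edgeR).

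These lungs are mixtures of cells, and fewer cells of a type and less RNA per cell cannot be told apart. Markers of leukocytes are therefore given beside the leukocyte integrins. Of the T cell markers, 1 of 6 was lower in hyperoxia, 0 at an unadjusted p under 0.05, and their sum was 76.5 to 92.5 CPM in room air and 72.6 to 92.6 CPM in hyperoxia. In the females these sums did not overlap and were higher in hyperoxia, at 83.1 to 92.6 CPM against 78.5 to 80.3 CPM. In the males 4 of 6 T cell markers were lower, 0 at that threshold, with a median log2 fold change of −0.06. *Itgal* was lower in both sexes. Background made up a median of 29% of the counts of the T cell markers. The receptor share averaged 0.766% in the hyperoxia females and 0.555% in the room air females. Of the B cell markers, 4 of 4 were lower, 3 of them at an unadjusted p under 0.05 and 0 after adjustment (edgeR), with sums of 97.5 to 175 and 91.9 to 123 CPM. In the females 4 of 4 B cell markers were lower at an unadjusted p under 0.05, with a median log2 fold change of −0.50, and in the males 2 of 4 were lower, 0 at that threshold, with a median of −0.02. The macrophage markers were lower for 4 of 6 genes, 0 at an unadjusted p under 0.05, at 225 to 479 and 264 to 421 CPM. The neutrophil markers were lower for 5 of 6 genes, 0 at an unadjusted p under 0.05, at 38 to 79.7 and 39.7 to 62.4 CPM. In the females 5 of 6 macrophage and 5 of 6 neutrophil markers were lower, 0 and 1 of them at an unadjusted p under 0.05, and in the males 2 and 0 were lower. No marker of these lists was at 0 in all lungs. Apart from the T cell markers in the females, these sums overlapped between the exposures in both sexes, and the part of these cells in the integrin values was not tested.

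Promoters of 23 of the 37 genes were listed in RefSeq, and *Itgal* and *Itgb2* were not among them. The letters GAGGAAG, a form of the motif of the myeloid factor PU.1, were searched on both strands and found in 8 of the 26 promoters listed for these genes, against 13.6% of the 32851 promoters listed in all. The letters of a general ETS motif, CCGGAAG, were found in 1 of the 26 and in 8.86% of all promoters, those of AP-1, TGANTCA, in 3 and in 7.81%, those of the GC box, GGGCGG, in 12 and in 35.7%, and those of RUNX, TGTGGT, in 3 and in 16.8%. A match describes the letters and not a bound site. The promoters of the leukocyte integrins *Itgam* (chr7:128062390-128062689, plus strand) and *Itgb7* (chr15:102231886-102232185, minus strand) are shown from 250 bases before the start to 50 after it on GRCm38.p6, with the PU.1 letters or their reverse complement in capitals.
Itgam: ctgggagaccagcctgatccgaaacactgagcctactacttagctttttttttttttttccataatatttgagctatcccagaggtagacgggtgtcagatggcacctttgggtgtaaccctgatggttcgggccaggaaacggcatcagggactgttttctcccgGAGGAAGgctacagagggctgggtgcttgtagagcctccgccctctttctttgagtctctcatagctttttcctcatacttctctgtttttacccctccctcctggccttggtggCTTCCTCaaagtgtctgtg
Itgb7: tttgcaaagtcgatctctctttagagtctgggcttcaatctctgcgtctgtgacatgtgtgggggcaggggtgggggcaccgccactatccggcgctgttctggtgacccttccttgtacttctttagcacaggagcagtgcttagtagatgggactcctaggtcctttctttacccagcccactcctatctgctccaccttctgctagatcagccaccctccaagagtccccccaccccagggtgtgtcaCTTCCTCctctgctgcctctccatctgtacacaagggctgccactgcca
The same letters were present in the promoters of *Itga11*, *Itga2b*, *Itgav*, *Itgb6*, *Lama2* and *Lamb3*, and absent from the listed window of *Itga4* and *Itgax*.

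**Figure D4:**
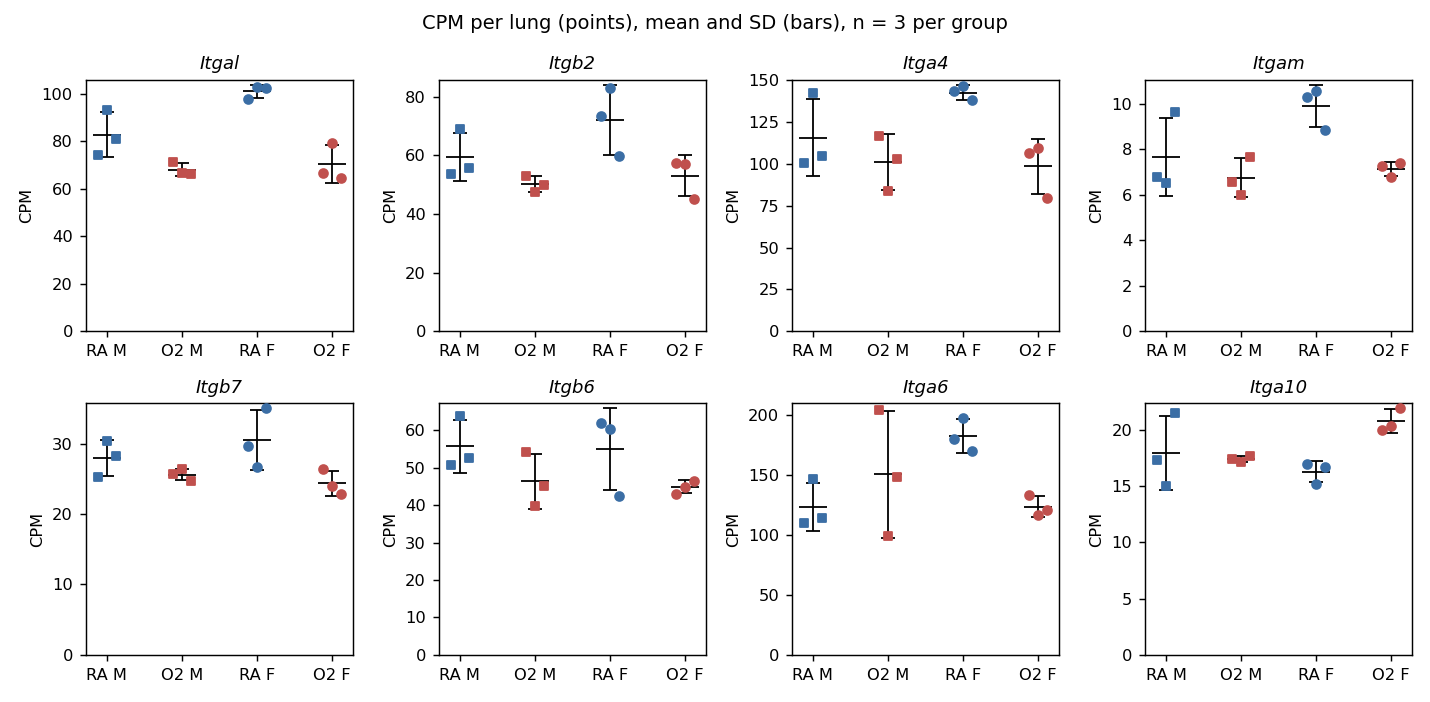
CPM of 8 integrin genes in each lung (points), with the mean and SD of the 3 lungs of a group (black). RA is room air, O2 hyperoxia, M male and F female, and each y axis starts at 0. On this upper-quartile scale Itgal and Itgb2 lie lower in the hyperoxia lungs than in the room air lungs of both sexes without overlap. Itga6 does so in the females, while its male groups overlap.

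The chains that bind the RGD motif of fibronectin, vitronectin and latent TGF-beta gave no call. *Itgb6* (ENSMUSG00000026971, chr2:60598292-60722643), the epithelial partner of alphav that activates latent TGF-beta, had 54.3, 39.7 and 45.2 CPM in the hyperoxia males and 50.7, 63.8 and 52.7 in the room air males. It had 43.1, 45 and 46.6 CPM in the hyperoxia females and 62.1, 60.4 and 42.4 in the room air females, and the groups overlapped in both sexes. Its log2 fold change was −0.28 (SE 0.13, unadjusted p = 0.0377, adjusted p = 0.927, edgeR) over all lungs and −0.26 (SE 0.18, adjusted p = 1.00, edgeR) in the males. With 1 lung left out the male value ran from −0.39 to −0.14, at −0.14 without room air male 4 and −0.15 without hyperoxia male 2, and holding the receptor share it was −0.33 (adjusted p = 0.275, edgeR). Scaled on the well-counted genes it was −0.31 in the males (unadjusted p = 0.00644, adjusted p = 1.00, edgeR), where the hyperoxia males, at 46.1, 51.3 and 45.3 CPM, lay below the room air males, at 59.7, 60.1 and 56.5 CPM. In the females it was 0.03 on that scale. Its within-lung share of the alphav partners per kilobase was 17 to 20.6% in hyperoxia and 19.4 to 23.8% in room air, without overlap in the males, and *Itgb5* took the largest share, 46.4 to 55.7% over all lungs.

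*Itgb5* had 77.8, 48.4 and 62.5 CPM in the hyperoxia males and 49.5, 72.1 and 59.3 in the room air males. It had 70.7, 51.7 and 57.3 CPM in the hyperoxia females and 75.4, 84.6 and 57.3 in the room air females, with overlap in both sexes and a log2 fold change of −0.11 (SE 0.15, adjusted p = 0.943, edgeR). *Itgb8* had 12.2, 14.8 and 15.1 CPM in the hyperoxia males and 21.3, 13 and 15.5 in the room air males. It had 14.9, 18.5 and 18.6 CPM in the hyperoxia females and 11.8, 16 and 15.6 in the room air females, and its log2 fold change was −0.24 in the males and 0.26 in the females, on counts near background. With 1 lung left out the male value ran from −0.38 to −0.02, nearest to 0 without room air male 1. *Itga8*, with an 8-base miR-30 match, had 341, 156 and 275 CPM in the hyperoxia males and 161, 275 and 216 in the room air males. It had 289, 206 and 224 CPM in the hyperoxia females and 331, 340.1 and 223 in the room air females, and its log2 fold change was −0.03 (SE 0.20, adjusted p = 0.988, edgeR) over all lungs. The other gene of this group with such a match, *Itgb3*, had 41.3 to 56.8 CPM in room air and 43.2 to 52.3 CPM in hyperoxia, a log2 fold change of −0.03 (SE 0.12, adjusted p = 0.975, edgeR).

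*Itga2b* (ENSMUSG00000034664, chr11:102453297-102470122), the platelet and megakaryocyte partner of beta3, had 38.3, 35.3 and 31.1 CPM in the hyperoxia males and 24.3, 31.2 and 33.9 in the room air males. It had 33.5, 33 and 33.5 CPM in the hyperoxia females and 32.6, 33.1 and 28.9 in the room air females, and room air male 1 was the lowest lung. Its log2 fold change was 0.23 (SE 0.15, adjusted p = 1.00, edgeR) in the males, and ran from 0.10 to 0.33 with 1 lung left out, least without room air male 1. On the well-counted scale it was 0.29 over all lungs (unadjusted p = 0.00953, adjusted p = 0.789, edgeR). Platelet markers summed to 39.1 to 55.2 CPM in room air and 45 to 57.8 CPM in hyperoxia, 4 of 5 of them higher, and their part was not tested. *Itga5*, the fibronectin receptor chain, had 76.1, 47.7 and 66.4 CPM in the hyperoxia males and 51.2, 73.6 and 61.3 in the room air males. It had 70.7, 56.3 and 66.9 CPM in the hyperoxia females and 81, 91.1 and 62.4 in the room air females, with a log2 fold change of −0.12 (SE 0.14, adjusted p = 0.937, edgeR). *Itgav* had log2 fold changes of −0.45 in the females and 0.01 in the males.

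Among the laminin-binding chains, *Itga6* (ENSMUSG00000027111, chr2:71745616-71858416), a partner of beta1 and beta4 in epithelium and endothelium, gave the smallest unadjusted p of the 37 in the test of whether the response differed between the sexes. *Itga6* had 204, 98.8 and 148 CPM in the hyperoxia males and 109.8, 147 and 114 in the room air males. It had 133, 116 and 121 CPM in the hyperoxia females and 179.7, 198 and 170.3 in the room air females. All hyperoxia females lay below the room air females, while the hyperoxia males spread over the room air males, with male 1 at the top of all 12 lungs. The log2 fold change was −0.56 (SE 0.24, adjusted p = 0.368, edgeR) in the females and 0.29 (SE 0.24, adjusted p = 1.00, edgeR) in the males, and the difference between them, females less males, was −0.85 (SE 0.34, unadjusted p = 0.0179, adjusted p = 0.578, edgeR). Scaled on the well-counted genes this difference was −0.47 (unadjusted p = 0.00311, adjusted p = 0.612, edgeR). There *Itga6* had 173, 128 and 149 CPM in the hyperoxia males and 129, 138 and 123 in the room air males, and 132, 133 and 138 CPM in the hyperoxia females and 151, 153 and 179 in the room air females, again without overlap in the females and with overlap in the males. Within a lung, *Itga6* had 47.6, 47 and 43.2 counts per 100 counts of *Itgb1* in the hyperoxia males and 40.8, 38.7 and 36.4 in the room air males, without overlap. In the females it had 39, 38 and 43.8 in hyperoxia and 37.6, 38.8 and 53.1 in room air, with overlap. Alveolar type 2 markers were lower in the hyperoxia females for 5 of 5 genes, with a median log2 fold change of −0.56, and in the hyperoxia males for 0 of 5, with a median of 0.17. Endothelial markers were lower for 5 of 5 genes in the females, with a median of −0.43, and for 2 of 5 in the males, with a median of 0.05, and the part of these cells was not tested. Without hyperoxia male 1 the difference was −0.57 and without hyperoxia male 2 −1.09 on the upper-quartile scale. RUVr with 1 factor called *Itga6* in this test, at −0.81 (adjusted p = 2.1e-05, edgeR). That fit called 1 of the 37 and 4.58% of all genes. Holding the receptor share the difference was −0.38 (adjusted p = 1.00, edgeR), and over the alternatives its adjusted p ran up to 1.00.

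In that test of the sexes 0 of the 37 were called, against 0% of all genes. *Itga6* was the 1 gene of the 37 with a lower log2 fold change in the females than in the males at an unadjusted p under 0.05, and 0 had a higher one, where 2.4% and 6.06% of all genes had. These counts of 1 and 0 were 10 and 2 without hyperoxia male 2, against 10.4% and 11.3% of all genes. They were 3 and 2 without room air female 6, against 6.55% and 11.6%. Without hyperoxia male 1 they were 0 and 0, against 1.01% and 3.21%, and without room air male 4 they were 1 and 3, against 4.15% and 7.32%. The difference was above 0 for 7 of the 37, for 58.6% of all genes and for 6.07% of the well-counted genes. On the well-counted scale it was above 0 for 25 of the 37, and in the fit that held the receptor share for 28. The 3 genes next to *Itga6* by unadjusted p were *Lama1*, *Itgb8* and *Itga10*, with differences of 0.48, 0.50 and 0.40 and adjusted p of 0.578, 0.578 and 0.578 (edgeR). The difference of *Itgb8* was 0.28 without room air male 1, and that of *Itga10* 0.24 without room air male 5. These 3 genes had background shares of 29.3, 83.8 and 33.8% of their counts, and *Itga6* 7.11%. *Lama1* had 33.7, 42.7 and 37.5 CPM in the hyperoxia males and 46.5, 38.2 and 45.3 in the room air males, and 38.4, 43.3 and 43.4 CPM in the hyperoxia females and 33.3, 27.9 and 41.4 in the room air females.

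*Itga3* had 177, 105 and 144 CPM in the hyperoxia males and 112, 164 and 145 in the room air males. It had 144, 129 and 111 CPM in the hyperoxia females and 197, 201 and 144 in the room air females, with overlap in both sexes and a log2 fold change of −0.24 (SE 0.17, adjusted p = 0.927, edgeR) over all lungs. In the females it was −0.50 (SE 0.24, unadjusted p = 0.0457, adjusted p = 0.392, edgeR) and in the males 0.01. *Itga7*, the muscle laminin receptor chain, had 38.4 CPM in room air male 1, the lung with the most skeletal muscle markers, against 31.8 to 39.9 CPM over the 12 lungs. *Itgb4*, the beta chain of hemidesmosomes, had log2 fold changes of −0.02 in the females and 0.07 in the males. *Itgb1* had 429, 210.4 and 344 CPM in the hyperoxia males and 269, 379 and 315 in the room air males. It had 342, 306 and 276 CPM in the hyperoxia females and 478, 509.7 and 321 in the room air females, and its log2 fold change was −0.24 (SE 0.20, adjusted p = 0.927, edgeR) over all lungs, −0.11 when scaled on the well-counted genes.

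Among the collagen-binding chains *Itga10*, the chondrocyte collagen receptor, was the 1 gene of the 37 that was higher without overlap in the hyperoxia females (2.7% of the 37, against 10.8% of all genes). It had 17.4, 17.2 and 17.7 CPM in the hyperoxia males and 17.4, 15 and 21.5 in the room air males. It had 20.03, 20.3 and 22 CPM in the hyperoxia females and 17, 15.2 and 16.7 in the room air females, a log2 fold change of 0.35 (SE 0.14, unadjusted p = 0.0212, adjusted p = 0.364, edgeR). The fit with the receptor share gave 0.29 (adjusted p = 0.887, edgeR). Part of its exons, 1739 bases, is shared with *Gm42957* on the same strand, so its count is uncertain. *Itga1*, which has an 8-base and a 7-base miR-30 match, had 583, 279.6 and 429.8 CPM in the hyperoxia males and 346, 533 and 425 in the room air males. It had 477, 368 and 344 CPM in the hyperoxia females and 607, 600.0 and 522 in the room air females. On this upper-quartile scale it was lower in all 3 hyperoxia females, but with a log2 fold change of −0.54 (SE 0.29, adjusted p = 0.42, edgeR). *Itga2* and *Itga11* had log2 fold changes of −0.01 and 0.08 over all lungs.

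Laminin genes gave no call either, and 0 of the 11 had an unadjusted p under 0.05 over all lungs or in either sex. *Lamc1* had 402, 204 and 338 CPM in the hyperoxia males and 279, 348 and 299 in the room air males. It had 333, 245 and 305 CPM in the hyperoxia females and 389, 427 and 312 in the room air females, a log2 fold change of −0.16 (SE 0.19, adjusted p = 0.937, edgeR) over all lungs. On the well-counted scale *Lamc1* differed by −0.05. *Lama5* had 381, 198 and 285 CPM in the hyperoxia males and 216, 303 and 277 in the room air males. It had 311, 208 and 246 CPM in the hyperoxia females and 332, 367 and 244 in the room air females, a log2 fold change of −0.09 (SE 0.19, adjusted p = 0.961, edgeR). *Lamb2* had 155, 92.1 and 137 CPM in the hyperoxia males and 108, 140.2 and 127 in the room air males. It had 150.0, 113 and 123 CPM in the hyperoxia females and 166, 182 and 127 in the room air females, a log2 fold change of −0.14 (SE 0.16, adjusted p = 0.937, edgeR). All 3 overlapped between exposures in both sexes. The other laminin genes described here had log2 fold changes over all lungs from −0.32 for *Lama3* to 0.08 for *Lamc3*.

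*Lama3* is named here after its values were seen, because it had the smallest unadjusted p of the 37 for hyperoxia against room air, over all lungs and in the males, when scaled on the well-counted genes. On that scale it had 192, 172 and 168 CPM in the hyperoxia males and 208, 223 and 212 in the room air males. It had 182, 194 and 221 CPM in the hyperoxia females and 235, 196 and 209 in the room air females. There the hyperoxia males lay below the room air males, while the female groups overlapped. On the upper-quartile scale it was the reverse, and *Lama3* had 226, 133 and 167 CPM in the hyperoxia males and 177, 237 and 197 in the room air males, with overlap, and 185, 170.0 and 193 CPM in the hyperoxia females and 280.5, 254 and 199 in the room air females, without overlap. The log2 fold change on that scale was −0.42 (SE 0.24, adjusted p = 0.436, edgeR) in the females and −0.21 (SE 0.24, adjusted p = 1.00, edgeR) in the males. On the well-counted scale it was −0.19 over all lungs (unadjusted p = 0.00663, adjusted p = 0.789, edgeR) and −0.27 in the males (unadjusted p = 0.0054, adjusted p = 1.00, edgeR). With the receptor share as a covariate it was −0.31 in the males (adjusted p = 0.374, edgeR). Alveolar type 1 markers, of the cells that cover most of the alveolar surface, summed to 566 to 1112 CPM in room air and 478 to 996 CPM in hyperoxia. Of these 5 markers 5 were lower over all lungs, with a median log2 fold change of −0.23 and 1 at an unadjusted p under 0.05. In the females 5 were lower, 3 of them at an unadjusted p under 0.05, and in the males 3 were lower, 0 at that threshold. Their part in the value of *Lama3* was not tested.

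**Figure D5:**
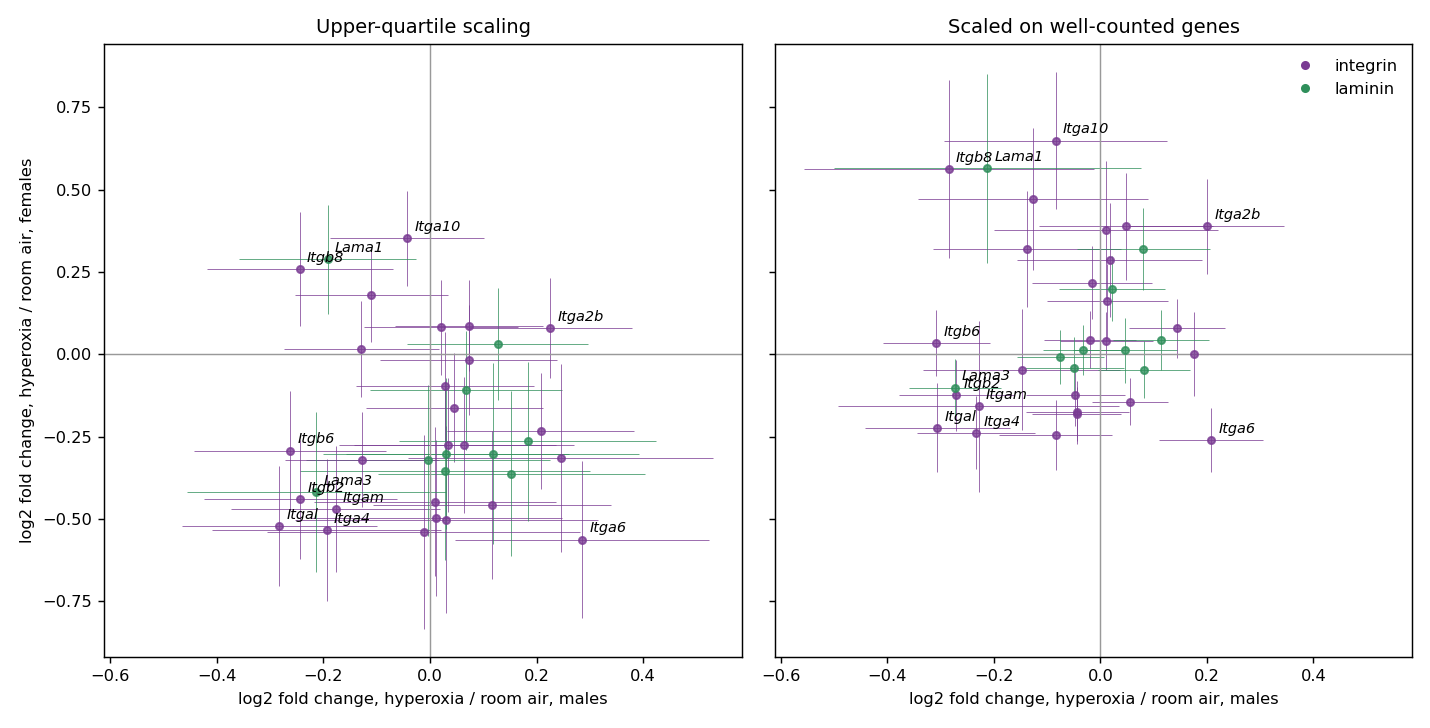
Log2 fold change of hyperoxia against room air in the females (y axis) and in the males (x axis) for 36 of the 37 genes, with standard errors, after upper-quartile scaling (left) and scaled on the well-counted genes (right). Integrins are purple and laminins green. The median of the 37 genes is −0.30 in the females on the left scale and 0.01 on the right one. Itgal, Itgb2 and Itga4 lie below 0 in both sexes on both scales.

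The plot of fold changes shows how the scale moved the set along the female axis. On both scales 9 of the 37 stayed below 0 in both sexes, *Itgal*, *Itgb2*, *Itga4*, *Itgam*, *Itgb7*, *Itga1*, *Lama2* and *Lama3* among them. In the males *Lama2* and *Itga1* were at only −0.004 and −0.01 on the upper-quartile scale. The other leukocyte chains did not stay below 0. Above 0 in both sexes on both scales were 4 of the 37, *Itga11*, *Itga2b*, *Itgae* and *Lamc3*. *Itgae* was at 0.08 in the females and 0.02 in the males on the upper-quartile scale. On the well-counted scale 5 of the 37 were lower and 2 higher over all lungs at an unadjusted p under 0.05, and 0 were called, where 1.29% of all genes were lower and 3.51% higher at that threshold. The lower ones were *Itga1*, *Itga4*, *Itgal*, *Itgb2* and *Lama3* and the higher ones *Itga2b* and *Lamc3*. *Itga4*, *Itgal* and *Itgb2* were lower at an unadjusted p under 0.05 on both scales.

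Females and males were compared over both exposures. Of the 37 genes 0 were called, against 1.22% of all genes tested, and 0 had an unadjusted p under 0.05, where 4.05% of all genes were higher in the females and 2.83% lower. None of the 37 was without overlap between the sexes, against 0.886% of all genes higher and 0.312% lower in the females. The 4 with the smallest p were *Itgam*, *Itgb2*, *Itgal* and *Itga5*, with log2 fold changes, females against males, of 0.22, 0.18, 0.17 and 0.18 and a smallest adjusted p of 0.893 (edgeR). Without hyperoxia male 2 the value of *Itga5* was 0.10, and without room air female 5 it was 0.12. On the upper-quartile scale 32 of the 37 were higher in the females, where 43.3% of all genes and 83.5% of the well-counted genes were. On the well-counted scale 17 of the 37 were, and holding the receptor share 18.

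Genes that work with integrins and laminins were read from 3 lists. Of the 20 genes of the adhesion machinery inside the cell, 0 were called over all lungs or in either sex, and at an unadjusted p under 0.05 there was 1 lower gene over all lungs and 3 in the females, where 2.52% and 5.28% of all genes were lower. The 2 with the smallest p were *Ilk*, a kinase-like scaffold on beta1 tails, at −0.51 (adjusted p = 0.927, edgeR), and *Vcl*, the talin-bound actin linker vinculin, at −0.30 (adjusted p = 0.927, edgeR). *Ilk* was at only 1.28 to 4.01 CPM. The median log2 fold change of the list was −0.14, beside −0.12 for the well-counted genes.

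Of 18 other integrin ligands 0 were called over all lungs or in either sex. In the females 5 were lower and 1 higher at an unadjusted p under 0.05, against 5.28% and 7.32% of all genes. In the males 1 was lower, against 1.8%. Over all lungs 1 was lower, against 2.52% of all genes. That gene was *Tnc*, tenascin C, a matrix protein of septation and repair that binds alpha8, alpha9 and alphav integrins. *Tnc* had 57.2, 40.8 and 48.3 CPM in the hyperoxia males and 73.1, 66.3 and 62.2 in the room air males. It had 43.9, 48 and 60.4 CPM in the hyperoxia females and 82.1, 59.1 and 61.3 in the room air females. The hyperoxia males lay below the room air males, and the female groups overlapped by 1 lung. Its log2 fold change was −0.44 over all lungs (SE 0.13, unadjusted p = 0.00292, adjusted p = 0.756, edgeR), −0.41 in the females and −0.46 in the males. The next gene of the list was *Cdh1*, E-cadherin, the epithelial ligand of alphaE beta7, at −0.33 (adjusted p = 0.927, edgeR). The list's median was −0.19.

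Of 18 genes of the basement membrane and other laminin binders 0 were called in hyperoxia over all lungs, against 0.0415% of all genes. At an unadjusted p under 0.05 over all lungs 1 was lower, against 2.52% of all genes, and the median of the list was −0.19. In the females and in the males 0 were called. The 2 with the smallest p were *Colq*, a collagen tail that anchors acetylcholinesterase, at −0.23, and *Cd151*, a tetraspanin that joins laminin-binding integrins, at −0.30 (both with an adjusted p of 0.927, edgeR). The 1 call in any of the 3 lists was between the sexes, where 1.22% of all genes were called. *Col4a6*, a collagen IV chain encoded on the X chromosome, had 32.1, 26.5 and 25.8 CPM in the hyperoxia males and 28.2, 30.2 and 28.8 in the room air males. It had 39.97, 45.8 and 47.4 CPM in the hyperoxia females and 37.6, 43.1 and 46.2 in the room air females. Its log2 fold change, females against males, was 0.60 (SE 0.11, adjusted p = 0.0013, edgeR).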

How the data were processed

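RNA-Seq of 12 whole lungs of miR-30a-/- mice, 3 per group of sex and exposure, was analysed. Reads had been trimmed (Trim Galore), aligned to mm10 (STAR) and assigned to genes (featureCounts) by the authors, who deposited the raw counts. The library kit differs between sources: QIAseq Stranded Total RNA in the methods, NEBNext Ultra II Directional after rRNA depletion in the labels. Lungs of a group carry different animal numbers, and the litters are not named.

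The counts were fitted with R 4.3.3, edgeR 4.0.16 (robust quasi-likelihood, upper-quartile factors, filterByExpr, 45828 genes, biological coefficient of variation 0.177). DESeq2 1.42.0 was an alternative. Python 3.11.15 with pandas 2.3.3 and matplotlib 3.10.9 drew the figures. The 37 genes, the gene lists and the tests were chosen with earlier results of these data known. All lungs entered each fit, and p-values were adjusted over all genes. Background per kilobase was the median over 1488 receptor genes. The genes named with values in every lung were the called ones, the 6 with the smallest p over all lungs, the 4 with the smallest p in each other contrast, and the 3 highest alpha, beta and laminin genes per exon length. Partner genes were named where called, or as the 2 of smallest p of their list over all lungs. Exon lengths and 3′ UTRs came from GENCODE M21 (GRCm38), and microRNAs and promoters from RefSeq (GRCm38.p6). Of 200 genes changed in simulated counts of 45183 genes, the test recovered 91 of 103 with a 2-fold and 96 of 97 with a 3-fold change over all lungs, with 14 false calls. Within a sex it recovered 62 (females) and 67 (males) of the 103 and 85 and 89 of the 97, with 7 and 8 false calls. The alternatives were TMM, DESeq2, other filters, RUVr with 1 or 2 factors, background subtracted, the receptor share as a covariate, an additive model, only the lungs of a sex, the replicate block, the adjusted p alone, and each lung left out. The values of 1 of the 37 genes are not reported here, and it stayed in the counts and medians.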

Additional observations from a re-analysis of the deposited data

Results flagged for a closer look

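*Itga10* in room air male 5 stood apart from the other 5 room air lungs, at 21.5 CPM against 17.4 CPM in the nearest. Among 40 groups of 6 lungs tested by Dixon's ratio it was the 1 flagged, and chance flags about 1 in 20.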

How the results depend on the processing

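The number of the 37 genes called was 0 in each of the 5 comparisons and stayed 0 with each lung left out in turn (range 0 to 0). It also stayed 0 with TMM, both filters, background subtracted, the receptor share as a covariate, the additive model, the lungs of 1 sex alone, the adjusted p alone and both scalings on well-counted genes, which were chosen after seeing the data. Exceptions were DESeq2 in the females, with 1 (*Itgal*, log2 fold change −0.62), RUVr with 1 factor and with 2 factors in the test of the difference between the sexes, with 1 each (*Itga6*, −0.81 in both), and the replicate block in that test, with 1 (*Itgb8*, 1.07). These fits called 0.194%, 4.58%, 4.77% and 8.39% of all genes. *Itgal* had an adjusted p of 0.0251 with DESeq2, in a range over its alternatives of 1.0e-06 to 0.914. The causes were not tested. At an adjusted p under 0.05 without a fold threshold, RUVr with 1 factor gave 11 of the 37 over all lungs and 26 in the females, against 4.51% and 16.7% of all genes, 14 in the difference between the sexes, against 11.7%, and 5 between the sexes, against 4.68%, and DESeq2 over all lungs and in the females 1 and 1, against 0.0982% and 0.196%.

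Of the log2 fold changes of genes named for their p, 1 turned direction: *Itgb6* in the males was 0.10 under the replicate block. Animal numbers did not pair the lungs: lungs of the same number and sex in the 2 exposures had correlations of −0.30, 0.06 and −0.17 of their deviations from group means. Without a shared number in 3 or more pairs per sex, the block of animal number within sex rests on few lungs, and it called 0 of the 37 over all lungs, in the females and in the males. The levels per exon length of the 3 highest alpha, beta and laminin genes moved by less than the SD over lungs with TMM and with background subtracted. There were 3 lungs per group, and whether this size kept genes of the 37 from a call was not tested. Background of 20% or more of the counts limits *Itgb8*, *Itgam*, *Itga10*, *Lama1*, *Itga7*, *Itgad* and *Itga11* most.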
